A study of Mus musculus with 54 samples.

Results

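Skeletal muscle of mice trained by swimming was compared with skeletal muscle of control mice. The arrays were chosen by their labels: of 54 arrays in the series, 7 are labelled skeletal muscle, 3 of them swim arrays (numbers 45 to 47 in their titles) and 4 control arrays (numbers 41 to 44). Both groups were C57BL6 mice, 14 weeks old. The swim mice were acclimated over 9 days with sessions that lengthened in steps of 10 min, and then trained for 3 weeks with 2 swims of 90 min a day and 4 hours of rest between the swims. The control arrays carry the same protocol text with the treatment given as control, and the labels do not say whether control mice were put into water. The series as a whole asks how organs other than muscle respond to exercise, and muscle is the tissue in it that does the work. The labels name no muscle, no sex and no hour of collection, and they do not say whether the arrays of a group came from separate animals. P-values here therefore measure the spread between these arrays, which may be technical, and the small number of arrays limits their precision.

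Skeletal muscle is built of slow fibres, which rely on mitochondria and fatty acids, and fast fibres, which rely more on glycolysis. Around the fibres lie capillaries, small arteries, connective tissue, nerve endings, satellite cells that rebuild fibres, and a variable amount of fat. Muscle also runs a circadian clock, in which the transcription factors BMAL1 and CLOCK switch on the genes of their own repressors, the PER and CRY proteins. The levels of clock genes in muscle therefore change with the time of day, and they also respond to feeding and to activity.

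Levels below are log2 levels, that is log2(signal + 16) after quantile normalization within the 7 muscle arrays. Per-array values are given in the order 45, 46 and 47 for swim arrays and 41, 42, 43 and 44 for control arrays. A log2 fold change is the swim mean minus the control mean, with its standard error from the limma fit, and a gene is said to rise or fall only where its limma adjusted p was under 0.05. In whole muscle, fewer cells of a type and less RNA per cell cannot be told apart. The median probe set signal was between 50.3 and 58.2 units on swim arrays and between 45.9 and 64.6 units on control arrays. Across genes, arrays correlated at r = 0.9801 to 0.9929 within the swim group, 0.9810 to 0.9913 within the control group and 0.9712 to 0.9816 between the groups.

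The muscle label held on every array, since Ckm, the creatine kinase of muscle, was between 14.00 and 14.06 on all 7. The arrays differed in fibre type. Tnnt1, the troponin T of slow fibres, was at 6.86, 11.74 and 12.47 on swim arrays and at 11.46, 7.71, 12.26 and 12.11 on control arrays. Tpm3, the slow fibre tropomyosin, was at 7.20, 12.88 and 13.38 on swim arrays and at 12.94, 6.59, 13.55 and 13.64 on control arrays. Swim array 45 and control array 42 thus stood apart with little slow fibre message, 1 array in each group. The mean of 18 fast fibre genes was between 13.22 and 13.31 on swim arrays and between 13.25 and 13.35 on control arrays.

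Fat markers differed between the 7 arrays. Adipoq, the adipocyte hormone adiponectin, was at 7.80, 9.60 and 9.20 on swim arrays and at 8.37, 6.27, 8.41 and 8.19 on control arrays. Ucp1, the uncoupling protein of brown fat, was at 4.61, 7.55 and 8.21 on swim arrays and at 7.31, 4.87, 4.91 and 7.23 on control arrays. Swim arrays 46 and 47 were the highest of the 7 for both genes, while swim array 45 lay inside the range of the control arrays for Adipoq and below it for Ucp1. Of 16 white adipocyte genes with a probe set, 15 passed the filter on low values and Lep (leptin) did not. The summed signal of the 16 was between 12398 and 18181 units on swim arrays and between 8611 and 13484 units on control arrays. Car3 was the brightest of the 16 on every array, at 12.67, 12.58 and 12.67 on swim arrays and at 12.47, 11.97, 12.12 and 12.29 on control arrays. The sum thus leans on Car3, which stayed high on control array 42, where Adipoq was lowest. Whether Car3 message came from fat or from fibres was not tested. Of the 15 genes that passed the filter, Thrsp and Car3 rose and 0 fell by limma, where 5.92% of all genes tested rose and 6.01% fell. The median log2 fold change of the 15 was 0.74, against -0.02 for all genes tested. Of 12 brown adipocyte genes, 7 passed the filter, and 3 of these, Cox7a1, Fabp3 and Ppargc1a, are also expressed in muscle fibres. The summed signal of the other 9 was at 182, 680 and 895 units on swim arrays and at 480, 249, 254 and 432 units on control arrays, with swim arrays 46 and 47 highest and swim array 45 lowest. Elovl3, Dio2, Kcnk3, Zic1 and Slc27a2 did not pass it, and of the 7 tested 0 rose and Fabp3 fell. The liver gene Alb was at 8.25, 11.02 and 9.12 on swim arrays and at 6.55, 11.30, 6.02 and 9.40 on control arrays, with high arrays in both groups.

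**Figure D1:**
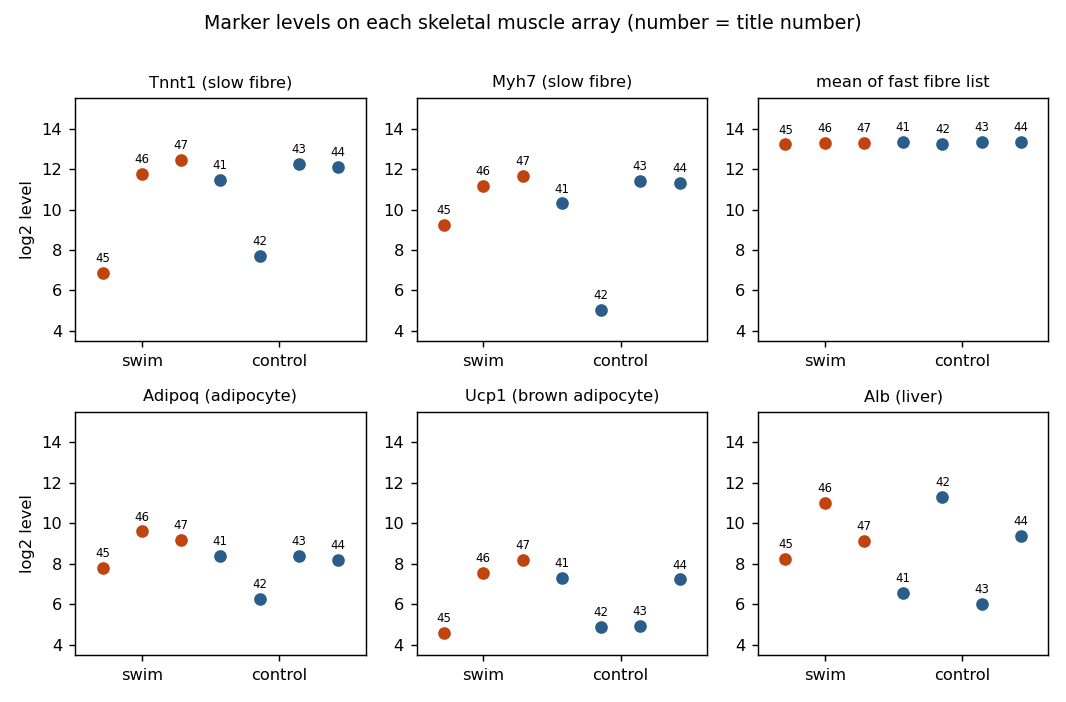
Log2 levels of slow fibre, fat and liver markers and the mean of the fast fibre list (y axis) on each of the 7 muscle arrays, swim on the left and control on the right of each panel, with array numbers beside the points. Swim array 45 and control array 42 lie low for Tnnt1, swim arrays 46 and 47 lie highest for Adipoq, and the fast fibre mean lies between 13.22 and 13.35 on all 7.

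Of 11063 genes tested, 1320 passed (11.9%), of which 655 rose (5.92%) and 665 fell (6.01%). At least 2-fold changes were found for 50 of them, 30 upward and 20 downward. The swim arrays lay entirely above or entirely below the control arrays for 3201 genes (28.9%), and for 1317 of the 1320 that passed. With the values as deposited, whose all-gene median log2 fold change was -0.23 against -0.02 after quantile normalization, 376 genes passed and 22.1% of them rose, against 49.6%. With arrays centred on their medians 885 genes passed, and 23.4% of them rose. The count rested heavily on single arrays: it was 68 without swim array 46, 524 without swim array 47, 882 without control array 42, and 528, 581 and 538 without control arrays 41, 43 and 44. Of the 182 called genes whose changes are given below, 30 passed without swim array 46, and the same 30 passed in each of the 7 fits that left out 1 array. With values as deposited 81 of the 182 passed, with arrays centred on their medians 134, and with the mean of the white adipocyte genes as a covariate 114. Without swim array 45 and control array 42 together, the pair low in slow fibre genes, 1098 genes passed.

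The clock genes held several of the largest changes in muscle. Of 18 clock and clock output genes that were tested, 8 rose and 3 fell, a called share of 61.1% against 11.9% of all genes tested, and the median was 0.31 against -0.02. The 8 that rose encode repressors, output factors and the deubiquitinase USP2, the 3 that fell encode activators, and 7 did not pass, with log2 fold changes between -0.47 and 0.33. Ciart, a repressor of BMAL1 and CLOCK, was at 8.69, 8.76 and 8.70 on swim arrays and at 6.10, 6.55, 5.98 and 7.37 on control arrays. It rose by 2.22 ± 0.30 (limma adjusted p = 0.0105), a 4.65-fold difference. The swim arrays were close to each other and all above the control arrays, of which array 44 was highest.

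Per2, a period repressor, was at 8.27, 8.37 and 8.50 on swim arrays and at 5.93, 6.78, 6.37 and 6.72 on control arrays. It rose by 1.93 ± 0.19 (limma adjusted p = 0.00545), with no overlap between the groups. Per3 was at 8.43, 8.62 and 8.57 on swim arrays and at 6.85, 7.27, 6.95 and 7.53 on control arrays, and rose by 1.39 ± 0.16. Per1 was at 9.18, 9.14 and 9.11 on swim arrays and at 7.10, 7.88, 8.41 and 8.16 on control arrays, and rose by 1.25 ± 0.27. For all 3 period genes the control arrays were spread more widely than the swim arrays. Hlf and Tef, which encode output factors that bind D-box elements, rose by 0.94 ± 0.09 and 0.34 ± 0.07. Cry2, a cryptochrome repressor, rose by 0.56 ± 0.10, and Usp2, a deubiquitinase under clock control, by 0.47 ± 0.11.

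Arntl, which encodes BMAL1, was at 7.31, 7.33 and 7.31 on swim arrays and at 9.11, 9.01, 9.18 and 8.52 on control arrays. It fell by 1.64 on the log2 scale (SE 0.15, limma adjusted p = 0.00418). The swim arrays were nearly equal and all lay more than 1 log2 unit below the lowest control array. Npas2, a relative of CLOCK, was at 5.06, 5.11 and 5.10 on swim arrays and at 6.79, 6.13, 6.72 and 6.26 on control arrays, and fell by 1.38. Clock was at 9.13, 8.96 and 9.05 on swim arrays and at 9.52, 9.60, 9.53 and 9.25 on control arrays, and fell by 0.43. Control array 44 was the lowest control for Arntl and Clock and the highest for Ciart and Per3. Nr1d2, which encodes the repressor REV-ERB beta, had a log2 fold change of 0.29 ± 0.09 and did not pass (limma adjusted p = 0.0602), and Cry1, Rora, Csnk1e, Bhlhe40, Bhlhe41 and Nfil3 did not pass. Arntl, Npas2, Per2, Per3 and Hlf passed in every fit that left out 1 array, and without swim array 46 the list had 3 rises and 2 falls. With the white adipocyte mean as a covariate it had 6 rises and 2 falls, and without swim array 45 and control array 42 it had 7 and 2.

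The promoters of the clock genes that passed were searched for the letters bound by their regulators, because BMAL1 and CLOCK bind E-boxes and Hlf and Tef bind D-boxes. The windows were the 250 bases before each RefSeq start in build GRCm38.p6, and 10 of the 11 genes, all but Per2, were matched to an entry. The E-box was searched as CACGTG and the D-box as TTATGNAA, on both strands, and no E-box match overlapped a D-box match. Of 32851 mouse promoters of this length, 6.02% held the E-box and 3.07% the D-box. The 4 sequences shown are those of the genes with a match, read 5′ to 3′ on the gene's strand with the matches in capitals. They are Ciart at chr3:95882229-95882478 (minus strand), Per1 at chr11:69098699-69098948 (plus strand), Tef at chr15:81802423-81802672 (plus strand) and Per3 at chr4:151044666-151044915 (minus strand).
Ciart: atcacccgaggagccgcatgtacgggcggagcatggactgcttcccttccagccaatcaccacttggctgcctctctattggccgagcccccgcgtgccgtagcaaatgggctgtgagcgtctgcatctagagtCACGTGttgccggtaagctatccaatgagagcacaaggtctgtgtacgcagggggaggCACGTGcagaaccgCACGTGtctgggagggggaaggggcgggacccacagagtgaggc
Per1: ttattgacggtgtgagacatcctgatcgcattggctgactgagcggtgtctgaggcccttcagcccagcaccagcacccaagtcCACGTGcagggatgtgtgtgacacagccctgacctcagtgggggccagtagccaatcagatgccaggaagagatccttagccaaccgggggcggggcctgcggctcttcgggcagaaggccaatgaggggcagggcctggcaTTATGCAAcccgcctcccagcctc
Tef: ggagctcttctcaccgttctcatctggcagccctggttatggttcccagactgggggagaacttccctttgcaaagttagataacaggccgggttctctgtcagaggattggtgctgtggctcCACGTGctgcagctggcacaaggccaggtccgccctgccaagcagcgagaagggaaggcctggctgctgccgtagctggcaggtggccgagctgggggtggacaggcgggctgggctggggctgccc
Per3: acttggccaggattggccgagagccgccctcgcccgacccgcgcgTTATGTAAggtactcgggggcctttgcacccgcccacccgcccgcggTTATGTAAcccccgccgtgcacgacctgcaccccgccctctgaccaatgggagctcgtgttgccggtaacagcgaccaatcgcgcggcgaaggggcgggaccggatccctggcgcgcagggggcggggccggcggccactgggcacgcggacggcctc
Ciart, the clock gene with the largest rise, held 3 E-boxes, which began at positions -116, -58 and -44 from the start. Per1 held an E-box at -166 and a D-box at -24. Tef held 1 E-box, at -127, and Per3 held 2 D-boxes, at -205 and -158. Per1 and Tef each have 2 annotated starts, and the window of the first is shown. The window of the other Per1 start held neither motif, and that of the other Tef start held 1 E-box, at -138. Hlf, Cry2, Usp2, Arntl, Npas2 and Clock held neither set of letters in this window. A match describes the sequence, and binding was not measured.

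**Figure D2:**
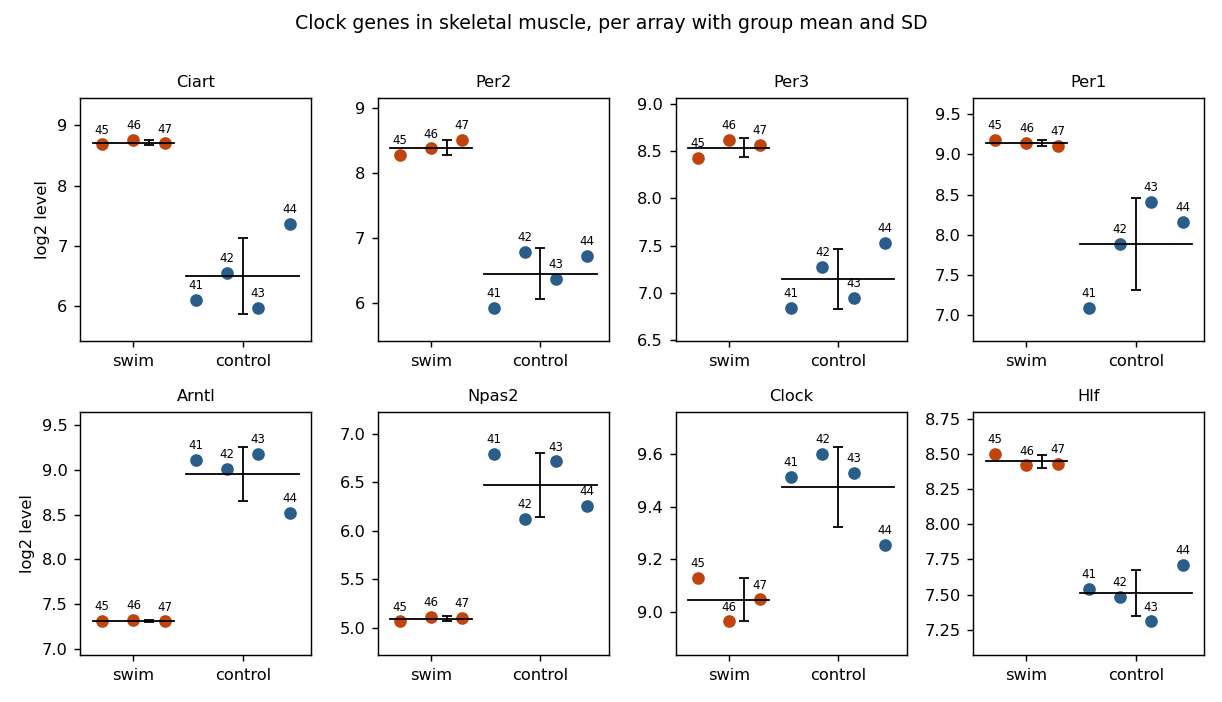
Log2 levels (y axis) of 8 clock genes on each muscle array, swim left and control right, with array numbers, group means (horizontal lines) and SD (vertical bars). Swim arrays of Ciart, Per2, Per3, Per1 and Hlf lie above all control arrays, swim arrays of Arntl, Npas2 and Clock lie below them, and the swim SD is the smaller in all 8 panels.

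Lcn2 was among the largest rises, next to Elovl6, Fasn and Ciart. It encodes lipocalin 2, a secreted protein that binds bacterial siderophores and is induced in inflammation. Lcn2 was at 8.66, 8.70 and 8.41 on swim arrays and at 5.88, 5.85, 6.73 and 6.27 on control arrays. It rose by 2.41 ± 0.21 (limma adjusted p = 0.00418), a 5.31-fold difference, with a wide gap between the groups. The values lay between 2.30 and 2.59 in the fits that left out 1 array, and the value was 2.29 with the white adipocyte mean as a covariate (limma adjusted p = 0.0109). Lcn2 is also a neutrophil gene, and the other 13 neutrophil genes with a probe set did not pass the filter on low values. Among these S100a8 was between 4.91 and 5.23 on swim arrays and between 4.96 and 5.28 on control arrays, and S100a9 between 5.21 and 5.28 on swim arrays and between 5.13 and 5.75 on control arrays. The lowest level tested was 5.69.

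Among 15 measured acute phase and inflammatory genes, 3 rose and 4 fell (46.7%, against 11.9% of all genes tested). Orm1, an acute phase plasma protein, was at 8.06, 8.99 and 8.60 on swim arrays and at 7.06, 7.40, 6.66 and 7.09 on control arrays, and rose by 1.501 ± 0.23 (limma adjusted p = 0.0137). Its swim arrays all lay above the control arrays. Within each group Orm1 had the array order of the liver gene Alb, with swim array 46 and control array 42 highest. Swim array 45, at 8.25 for Alb, was higher in Orm1 than control array 42, at 11.30 for Alb. How much liver message adds to Orm1 was not tested. Il6ra, the interleukin 6 receptor, rose by 0.33. The genes that fell were the interleukin 1 receptor gene Il1r1, by 0.52, the chemokine genes Ccl9, by 0.72, and Cxcl1, by 0.45, and the adhesion molecule gene Icam1, by 0.41. Lcn2, Il1r1 and Ccl9 passed in every fit that left out 1 array.

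Of 20 measured macrophage genes, 0 rose and 5 fell by limma, and 19 had a negative log2 fold change, with a median of -0.37. The genes that fell were C1qb, a complement subunit, by 0.41, Mpeg1, a pore-forming protein, by 1.003, Tyrobp, a signalling adaptor, by 0.56, Adgre1, the F4/80 antigen, by 0.51, and Fcgr3, an Fc receptor, by 0.38. Mpeg1 was at 5.31, 5.55 and 5.02 on swim arrays and at 6.18, 6.83, 5.67 and 6.52 on control arrays, with control array 43 closest to the swim arrays. The summed signal of 25 macrophage genes was between 1987 and 2492 units on swim arrays and between 2371 and 3620 units on control arrays, so the groups overlapped. None of the 5 passed without swim array 46 or with the mean of the white adipocyte genes as a covariate. Of 6 MHC class II genes, 0 passed by limma, 5 had an unadjusted p under 0.05 and all 6 had negative log2 fold changes (median -0.64), with H2-Eb1 at -0.66 ± 0.18 (limma adjusted p = 0.0508). With values as deposited 5 of these 6 passed as falls. Of 21 interferon-stimulated genes, 0 passed by limma and 5 had an unadjusted p under 0.05.

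Of 22 measured lipid synthesis genes, 9 rose, 0 fell and 13 did not pass, with a median of 0.58. The called share was 40.9%, against 11.9% of all genes tested. Fasn, the fatty acid synthase, was at 9.81, 11.40 and 11.23 on swim arrays and at 9.39, 7.35, 8.17 and 9.46 on control arrays. It rose by 2.22 ± 0.58 (limma adjusted p = 0.0467). Swim arrays 46 and 47 were far above the rest, and swim array 45 was only just above control arrays 41 and 44. Elovl6, an elongase of long-chain fatty acids, was at 7.25, 9.73 and 9.60 on swim arrays and at 6.92, 5.91, 5.90 and 7.20 on control arrays, and rose by 2.38 ± 0.62.

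In the enzymes upstream of Fasn, swim arrays 46 and 47 were again the highest and swim array 45 lay close to control arrays 41 and 44. Acly, which makes cytosolic acetyl-CoA, rose by 1.81 ± 0.41, and Acaca, which makes malonyl-CoA, by 1.57 ± 0.38. Thrsp, a regulator of lipid synthesis, rose by 1.26, and Dgat1, which completes triglycerides, by 0.71. Insig1, which holds the sterol-regulated factors in the endoplasmic reticulum, rose by 0.68, the elongase gene Elovl5 by 0.46 and Mlxipl, which encodes the carbohydrate-responsive factor ChREBP, by 0.28, though Mlxipl was at -0.0004 with values as deposited. Scd1, the stearoyl-CoA desaturase, was at 11.93, 12.64 and 12.62 on swim arrays and at 11.68, 9.77, 10.84 and 11.26 on control arrays, and with a log2 fold change of 1.51 ± 0.42 it did not pass (limma adjusted p = 0.0514). Srebf1, the gene of the factor SREBP-1, was at 0.43 and Pparg, the regulator of fat cells, at 1.01, and neither passed.

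The arrays highest in these genes, swim 46 and 47, were also the highest for Adipoq and for the white adipocyte list, whose mean level was 8.28, 9.49 and 9.34 on swim arrays and 8.64, 7.48, 8.59 and 8.39 on control arrays. With that mean as a covariate, 2 of the 22 lipid synthesis genes passed, and the log2 fold change of Fasn was 1.17 (limma adjusted p = 0.109). Thrsp belongs to both lists, so the covariate shares signal with the genes it adjusts. That fit therefore cannot tell fat content from lipid synthesis. Without swim array 46, 0 of the 22 passed by limma, where 15 of the 22 had an unadjusted p under 0.05 with all arrays. Without swim array 45 and control array 42 together, 11 rose.

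Of 12 measured genes of smooth muscle and pericytes, the contractile cells of vessel walls, 6 rose, 0 fell and 6 did not pass. All 12 had a positive log2 fold change, with a median of 0.56. Acta2, smooth muscle actin, was at 10.47, 10.92 and 11.07 on swim arrays and at 9.50, 9.78, 9.89 and 9.56 on control arrays, and rose by 1.14 ± 0.16 (limma adjusted p = 0.0108). Tagln, the actin-binding protein transgelin, was at 7.83, 7.999 and 8.37 on swim arrays and at 6.83, 6.503, 7.31 and 6.95 on control arrays, and rose by 1.17 ± 0.19. In both genes the groups did not overlap.

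Myh11, the smooth muscle myosin, rose by 0.99, Mylk, the kinase that starts smooth muscle contraction, by 0.68, Notch3, a receptor of arterial mural cells, by 0.67 and Pdgfrb, the receptor that pericytes use, by 0.33. Notch3 was at 7.44, 7.52 and 7.43 on swim arrays and at 6.76, 6.86, 6.76 and 6.80 on control arrays, a gap wider than the spread within either group. The summed signal of 13 genes of the list was between 13260 and 14761 units on swim arrays and between 11572 and 11837 units on control arrays. Without swim array 46 only Notch3 of this list passed. With the white adipocyte mean as a covariate 5 of the 12 passed.

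Of 18 measured endothelial genes, 5 rose and 1 fell (33.3%), with a median of 0.31. Ptprb, a phosphatase of vessel walls, rose by 0.66 ± 0.07 (limma adjusted p = 0.00632). Vwf, the von Willebrand factor, rose by 0.57, Cdh5, the cadherin of endothelial junctions, by 0.54, the junction gene Esam by 0.40 and the guidance receptor gene Robo4 by 0.39, while Aplnr, the apelin receptor, fell by 0.46. Of 26 angiogenesis genes, 3 rose and 1 fell (15.4%, against 11.9% of all genes tested). The rises were Notch1, by 0.61, its ligand gene Dll4, by 0.61, and Robo4 as above, with Aplnr the gene that fell. Kdr and Pecam1 did not pass. Without swim array 46 only Ptprb of the endothelial list passed, with values as deposited 0 of the list rose and 1 fell, and with the white adipocyte mean as a covariate 2 rose.

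Genes of the extracellular matrix were lower in part. Of 35 measured genes, 11 fell and 1 rose (34.3%, against 11.9% of all genes tested), with a median of -0.21. Col3a1, a fibrillar collagen, was at 8.29, 8.52 and 8.19 on swim arrays and at 9.54, 9.38, 9.02 and 9.28 on control arrays. It fell by 0.97 on the log2 scale (SE 0.13, limma adjusted p = 0.0104), with every swim array below every control array. Col4a1, a chain of the basement membrane collagen, was at 7.31, 7.78 and 7.58 on swim arrays and at 8.58, 8.39, 8.37 and 8.33 on control arrays, and fell by 0.86.

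The partner chain gene Col4a2 fell by 0.57, Col5a2 by 0.71, Col5a1 by 0.42, Col6a2 by 0.55, Col6a3 by 0.41 and Col15a1 by 0.54. The collagen crosslinking genes Loxl1 and Loxl2 fell by 0.55 and 0.57, and Mmp14, a membrane-bound matrix protease, by 0.63. Timp3, an inhibitor of matrix proteases, was the gene of the list that rose, with 10.51, 10.62 and 10.57 on swim arrays, 9.75, 9.69, 9.57 and 9.94 on control arrays and a log2 fold change of 0.83 ± 0.09. Col1a1 was at -0.52 ± 0.25 and did not pass (limma adjusted p = 0.191). Of 17 fibroblast and tendon genes, 0 passed by limma and 2 had an unadjusted p under 0.05, and their summed signal was between 11279 and 15936 units on swim arrays and between 9922 and 15709 units on control arrays. Without swim array 46 the matrix list had 4 falls, which were Col3a1, Col4a1, Col4a2 and Loxl1, and Timp3 still passed. With the white adipocyte mean as a covariate 7 fell.

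**Figure D3:**
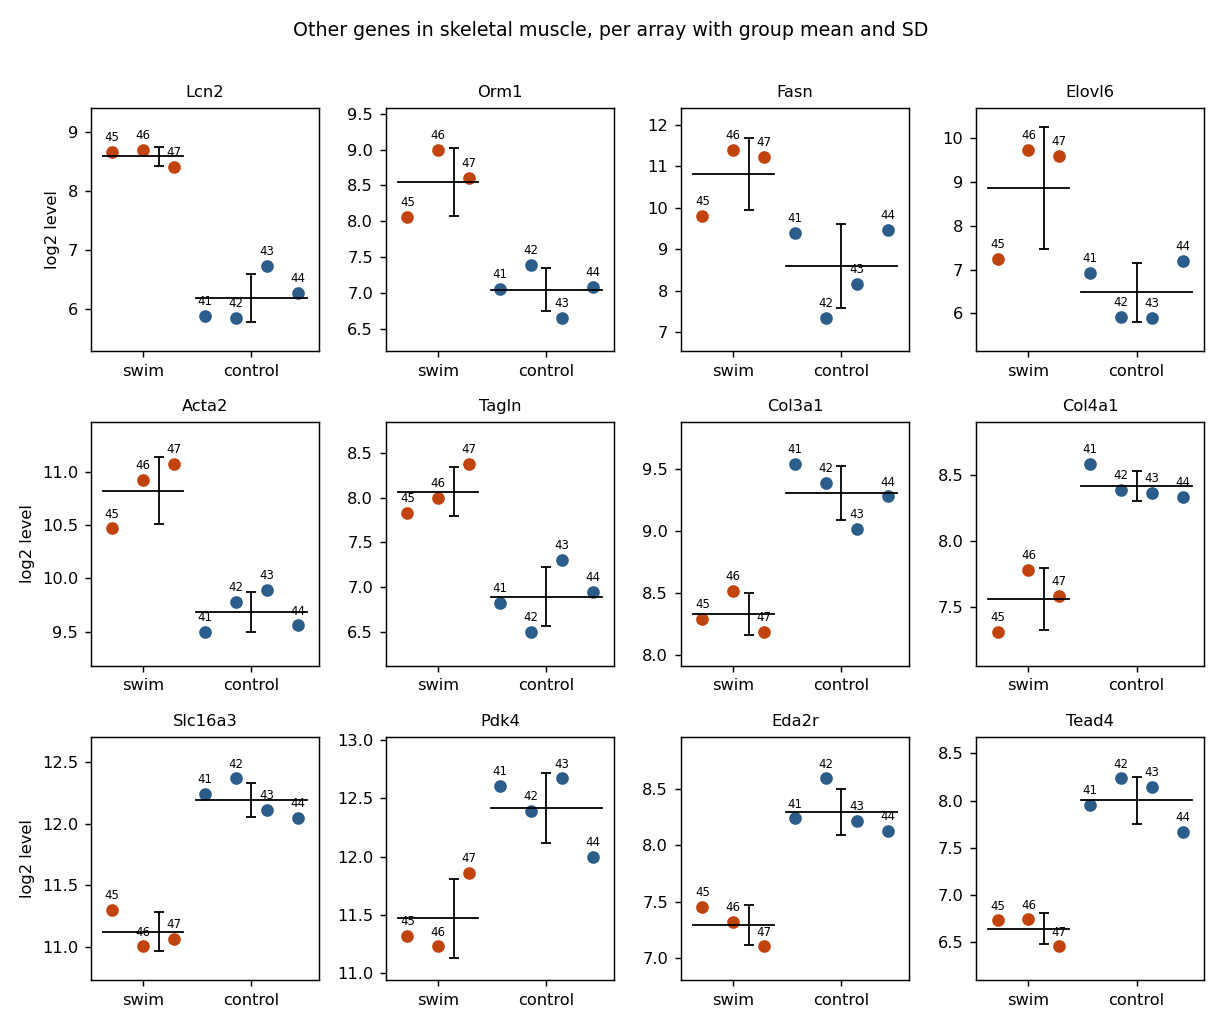
Log2 levels (y axis, a scale of its own in each panel) of 12 genes on each muscle array, swim left and control right, with array numbers, group means (horizontal lines) and SD (vertical bars). The groups are apart in all 12 panels, widely for Lcn2, Slc16a3 and Tead4, and narrowly for Fasn and Elovl6, where swim array 45 lies close to control arrays 41 and 44.

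In the lists of fuel use, the called share lay between 4.17% and 14.3%, against 11.9% of all genes tested. Slc16a3, which encodes the lactate exporter MCT4, was at 11.30, 11.01 and 11.07 on swim arrays and at 12.24, 12.37, 12.11 and 12.05 on control arrays. It fell by 1.07 on the log2 scale (SE 0.10, limma adjusted p = 0.00523), was the 1 call among 24 genes of glucose uptake, glycolysis and lactate, and passed in every fit that left out 1 array. Pdk4, the kinase that shuts off pyruvate dehydrogenase, was at 11.32, 11.23 and 11.86 on swim arrays and at 12.60, 12.39, 12.67 and 12.00 on control arrays, and fell by 0.95. It was the 1 call among 9 genes that control pyruvate dehydrogenase, and swim array 47 and control array 44 were close. Pdk2, of the same family, did not pass, and neither did the glucose transporter gene Slc2a4.

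Of 33 genes of fatty acid oxidation and uptake, 1 rose and 2 fell. Echs1, an enzyme of beta oxidation, rose by 0.56, Acot2, a mitochondrial thioesterase, fell by 0.81, and Fabp3, the fatty acid carrier of slow muscle and heart, fell by 0.76. Of 15 glycogen genes, Epm2a, the glycogen phosphatase laforin, fell by 0.33 and Stbd1, which tethers glycogen, by 0.49. Of 28 genes of amino acid, branched chain and creatine metabolism, 4 rose and 0 fell (14.3%), all 4 of them in the breakdown of branched chain amino acids. Bcat2, the mitochondrial transaminase that starts it, was at 9.55, 9.61 and 9.62 on swim arrays and at 9.11, 9.05, 9.12 and 9.12 on control arrays, a log2 fold change of 0.49 ± 0.05 (limma adjusted p = 0.00698). Bckdhb, a subunit of the next complex, rose by 0.56, Ivd, the leucine pathway dehydrogenase, by 0.37, and Dbt by 0.26, though Dbt was at -0.02 with values as deposited. Without swim array 46, Slc16a3 and Bcat2 were the genes of these lists that passed, and with values as deposited none of the 4 amino acid genes did.

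Mitochondrial lists had called shares on both sides of that of all genes tested (11.9%). Of 34 genes listed under complex I by name, 0 rose and 3 fell (8.82%), Ndufa4 by 0.24, Ndufs5 by 0.33 and Ndufb2 by 0.47. Ndufa4 is counted here by its name, although its product is placed in complex IV. Of 41 genes of complexes II to V and cytochrome c, 1 rose and 4 fell (12.2%). Cox6a2, the muscle form of a cytochrome oxidase subunit, rose by 0.35, while Uqcrfs1 and Uqcr11 of complex III each fell by 0.35, the ATP synthase gene Atp5l by 0.32 and the oxidase gene Cox7a2 by 0.24. Of 17 genes of the tricarboxylic acid cycle, 0 passed by limma and 4 had an unadjusted p under 0.05, with log2 fold changes between -0.26 and 0.31. Of 47 mitochondrial ribosome genes, 1 rose (Mrpl17, by 0.43) and 7 fell, among them Mrps34 by 0.51 and Mrps16 by 0.36, with a median of -0.12.

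Of 30 PGC-1 and mitochondrial biogenesis regulators, 1 rose and 3 fell (13.3%, against 11.9% of all genes tested). Ppargc1a, which encodes the coactivator PGC-1 alpha, was at 10.20, 10.31 and 10.47 on swim arrays and at 9.88, 10.09, 10.16 and 10.09 on control arrays. Its log2 fold change of 0.27 ± 0.09 did not pass (limma adjusted p = 0.0893) and was -0.01 with values as deposited. The nuclear receptor gene Esrra fell by 0.35, the mitochondrial DNA factor gene Tfam by 0.27 and the mitochondrial deacetylase gene Sirt3 by 0.51, while Nrip1, a corepressor of oxidative genes, rose by 0.57. None of the genes named in this and the preceding paragraph passed without swim array 46.

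Among contractile lists, the called share was 12.5% for slow fibre and 11.5% for sarcomere genes, close to the 11.9% of all genes tested. Of 18 fast fibre genes, 0 passed by limma and 0 had an unadjusted p under 0.05, with log2 fold changes between -0.22 and 0.10. Of 16 slow fibre genes, 1 rose and 1 fell, and Myh7, Tnnt1, Tpm3, Tnni1 and Myl2 did not pass. Phospholamban (Pln), which restrains the calcium pump of slow fibres, was at 6.94, 7.28 and 7.46 on swim arrays and at 6.26, 6.29, 6.78 and 6.06 on control arrays, and rose by 0.88 ± 0.18. Pln is also expressed in smooth muscle, whose genes are described above. Smyd1, a methyltransferase of striated muscle, fell by 0.44. Of 26 sarcomere genes, Ankrd1, a stretch-responsive titin partner, fell by 0.95 and Myoz3, a Z-disc protein of fast fibres, by 0.29, while Sgca, a sarcoglycan, rose by 0.21, with -0.13 for Sgca as deposited and -0.01 with arrays centred on their medians.

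Of 27 genes of excitation and calcium handling, 3 rose and 3 fell (22.2%, against 11.9% of all genes tested). Cacna1s and Cacng1, subunits of the voltage sensor in the T-tubule, rose by 0.31 and 0.60, and Clcn1, the muscle chloride channel, by 0.37, though Cacna1s was at -0.01 with values as deposited. Jsrp1, a junction protein that binds the voltage sensor, was at 7.04, 7.51 and 7.55 on swim arrays and at 8.30, 8.14, 7.98 and 8.26 on control arrays, and fell by 0.81 ± 0.14. Kcnj11, a subunit of the ATP-sensitive potassium channel, fell by 0.37, and Rcan1, the calcineurin regulator whose gene answers to calcineurin activity, by 0.66. None of the contractile and calcium genes named passed without swim array 46.

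Genes of muscle atrophy were lower in part. Of 30 genes of atrophy and autophagy, 2 rose and 7 fell, with a median of -0.12. Eda2r, the receptor of ectodysplasin A2, was at 7.45, 7.31 and 7.10 on swim arrays and at 8.24, 8.60, 8.22 and 8.13 on control arrays, and fell by 1.01 on the log2 scale (SE 0.13, limma adjusted p = 0.0100). Trim63, the ubiquitin ligase MuRF1, fell by 0.61, and Fbxo32, the ligase atrogin-1, was at -0.72 ± 0.20 and did not pass (limma adjusted p = 0.0508). The ligase genes Fbxo30 and Trim32 fell by 0.48 and 0.28, the activin receptor gene Acvr2b by 0.36, the factor gene Foxo4 by 0.34 and the autophagy gene Gabarapl1 by 0.38. Hdac4, a deacetylase linked to denervation, rose by 0.44 and the autophagy gene Map1lc3b by 0.25, though Map1lc3b was at -0.02 with values as deposited. Mstn, the growth inhibitor myostatin, did not pass.

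Of 15 genes of p53 and DNA damage, 0 rose and 4 fell (26.7%, against 11.9% of all genes tested). The falls were Eda2r, which is a p53 target as well, Phlda3, an inhibitor of AKT, by 0.66, the exonuclease gene Aen by 0.48 and Mdm2, the ligase that degrades p53, by 0.36. Of 8 polyamine genes, 0 rose and 5 fell (62.5%), with a median of -0.33. Odc1, the rate-limiting enzyme of polyamine synthesis, was at 10.01, 9.40 and 9.41 on swim arrays and at 10.72, 10.68, 10.54 and 10.20 on control arrays, and fell by 0.93. Smox, the spermine oxidase, fell by 0.55, Sat2 by 0.48, Oaz2, an antizyme that inhibits ornithine decarboxylase, by 0.37 and Sms, the spermine synthase, by 0.28. The 5 genes hold roles in synthesis, breakdown and inhibition.

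Of 27 genes of growth and anabolic signalling, 4 rose and 2 fell (22.2%, against 11.9% of all genes tested). Igf1r, the receptor of insulin-like growth factor 1, rose by 0.66, Myc by 0.51, Eif4ebp1, a translation inhibitor under mTORC1, by 0.39 and Rptor, a subunit of mTORC1, by 0.26. Irs1, the insulin receptor substrate, fell by 0.45, and Pdk4 fell as above. Of 52 cytosolic ribosome genes (5.77% called), Rpl10, Rpl28 and Rpl29 rose by 0.26, 0.29 and 0.20. However, Rpl10 and Rpl29 were at -0.04 and -0.06 with values as deposited, and copies of ribosomal protein genes may share probes. Ccnd2, cyclin D2, was the 1 rise among 14 cell cycle genes (7.14% called), at 0.70 ± 0.09. Without swim array 46, Eda2r and Ccnd2 were the genes of the atrophy, p53, polyamine, growth, ribosome and cell cycle lists that passed. With values as deposited 2 of the polyamine genes passed.

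**Figure D4:**
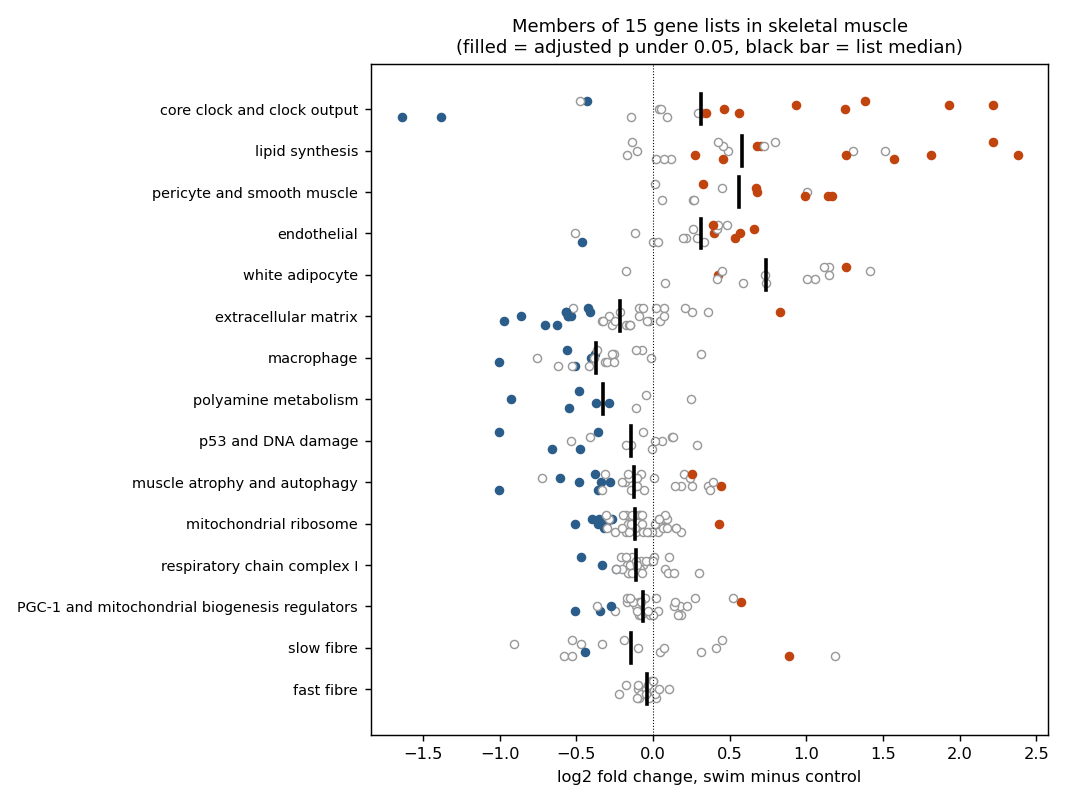
Log2 fold changes, swim minus control (x axis), of the measured members of 15 gene lists (rows), with filled points for genes of limma adjusted p under 0.05, open points for the others and a black bar at each list's median. The medians lie at 0.74 for white adipocyte genes, 0.58 for lipid synthesis and 0.56 for pericyte and smooth muscle, and at -0.37 for macrophage genes, -0.33 for polyamine and -0.21 for matrix genes.

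Stress genes gave short lists in both directions. Called shares were 20.8% for immediate early, 14.3% for heat shock and 17.4% for endoplasmic reticulum stress and ATF4 genes, against 11.9% of all genes. Of 24 immediate early genes, Klf6 rose by 0.55 and Klf4 by 0.38, Egr1 fell by 0.84 and Junb by 0.34, Myc rose as above, and Fos did not pass. Egr1 was at 5.89, 6.27 and 5.99 on swim arrays and at 7.23, 7.14, 6.56 and 6.65 on control arrays. Of 21 heat shock genes, Dnajb1, an HSP40 cochaperone, was at 7.95, 7.97 and 7.91 on swim arrays and at 6.30, 6.57, 6.82 and 7.28 on control arrays, and rose by 1.20 ± 0.20. The relative Dnaja4 fell by 0.38 and the factor gene Hsf2 by 0.27. Of 23 genes of endoplasmic reticulum stress and ATF4, Asns, the asparagine synthetase, rose by 0.96, while the chaperone gene Sdf2l1 fell by 0.77 and the mitochondrial folate genes Shmt2 and Mthfd2 by 0.43 and 0.51.

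Of 27 antioxidant genes, 2 rose and 5 fell (25.9%, against 11.9% of all genes tested). Nfe2l2, which encodes the factor NRF2, rose by 0.35 and Gstm1, a glutathione transferase, by 0.51. The peroxide-reducing genes Srxn1 and Prdx1 fell by 0.69 and 0.40, the glutathione synthesis gene Gclm by 0.32, Nqo1 by 0.24 and Gpx4 by 0.20. Of 24 glucocorticoid-responsive genes (12.5% called), Per1 rose as above, Mertk, a receptor for dying cells, by 0.62, and Trim63 fell. Of 30 proteasome genes (13.3% called), Psmb2 rose by 0.50, while Psma7 fell by 0.31, Psma1 by 0.23 and Psmd12 by 0.20. Of these stress and proteasome genes, Psmb2 passed without swim array 46.

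Of 24 genes of exercise-linked secreted factors, 1 rose and 1 fell (8.33%, against 11.9% of all genes tested). Cxcl12, a chemokine made by stromal and endothelial cells, rose by 0.45, and Erfe, the hormone erythroferrone, fell by 0.46. Fndc5, the precursor of irisin, Fgf21 and Vegfa did not pass. Of 13 genes of satellite cells and regeneration (23.1% called), Notch3 rose as above and the integrin gene Itga7 by 0.29. The syndecan gene Sdc4 fell by 0.51, while Myf5, Myog and Myh3 did not pass the filter on low mean values. Control array 42 stood apart for Myh3, at 8.24 against 4.94 to 5.35 on the other arrays. It also did for Mymk, at 7.17 against 5.74 to 5.91, while for Pax7, at 6.15, it lay inside their range. Of 6 Schwann cell and nerve genes, Pmp22, a myelin protein also made outside nerve, was at 10.28, 10.63 and 10.65 on swim arrays and at 9.37, 9.15, 9.38 and 9.50 on control arrays, and rose by 1.17 ± 0.11 (limma adjusted p = 0.00540). The summed signal of the other 11 Schwann cell and nerve genes was between 452 and 731 units on swim arrays and between 513 and 573 units on control arrays, so the groups overlapped. Of 3 red cell genes, Alas2, which starts haem synthesis in red cells, rose by 0.67. The B cell list (1 gene measured), the T and NK cell list (2) and the list of other organs (3) had 0 calls by limma and 1 gene in all with an unadjusted p under 0.05. Of 15 genes of the muscle fibre list, Cacna1s rose as above, and of 20 genes of small RNA and RNA processing Tarbp2, a partner of Dicer, fell by 0.43.

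Beyond the lists, the largest rises included Slc1a5, the glutamine transporter ASCT2, by 1.21, Otud1, a deubiquitinase, by 1.28, and A530016L24Rik by 1.66. The largest falls included Tead4, a partner of the YAP coactivator, which was at 6.73, 6.74 and 6.45 on swim arrays and at 7.96, 8.23, 8.15 and 7.66 on control arrays and fell by 1.36 ± 0.14 on the log2 scale (limma adjusted p = 0.00607). Neurod2, a neuronal factor, fell by 1.36, the proteases Htra4 and Mmp24 by 1.15 and 1.13, Prkcd, protein kinase C delta, by 1.11, the fibrinogen-like gene Fgl2 by 1.05, Ttc9 by 1.15, Frrs1l by 1.08, Gm13889 by 1.16, Gm16551 by 1.25, 1700001O22Rik by 1.38 and A930003A15Rik by 1.07. For Neurod2 and Mmp24 the swim arrays were spread over more than 1 log2 unit, with array 45 lowest. Some genes of smallest p were chosen for mention after their values were seen. Slc5a3, the inositol transporter, was at 7.77, 7.85 and 7.89 on swim arrays and at 6.79, 6.88, 6.998 and 6.90 on control arrays, and rose by 0.95 ± 0.07 (limma adjusted p = 0.00418). Apod, a lipocalin that carries lipids, rose by 1.02, the membrane gene Tspan4 by 1.06, Gm3893 by 1.16 and Wee1, a kinase that delays mitosis and a known clock output in liver, by 0.78. Tead4, Ttc9, Gm13889 and these 5 passed in every fit that left out 1 array.

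Where 5.92% of all genes tested rose and 6.01% fell, 21 rose and 25 fell of 302 tested genes that are not annotated as protein-coding. Among them were 5 microRNA genes, also chosen after their values were seen. Mir133a-2, a muscle microRNA gene, was at 8.46, 8.90 and 9.17 on swim arrays and at 8.19, 8.11, 7.37 and 7.61 on control arrays, and rose by 1.03 ± 0.24 (limma adjusted p = 0.0330). Mir335 rose by 0.85 ± 0.19, Mir505 rose by 0.40, Mir504 fell by 0.70 and Mir668 fell by 0.49. The array reads the annotated gene, so the level of the mature microRNA was not measured. For the 4 of these genes matched in the RefSeq table used (GRCm38.p6), all but Mir133a-2, 1 mature arm each is shown with the seed (bases 2 to 8) in capitals, since the seed sets which messages a microRNA can pair with. They lie at chr6:30741314-30741336 (plus strand), chrX:59097705-59097726 (minus strand), chrX:60394416-60394437 (minus strand) and chr12:109734774-109734797 (plus strand).
mmu-miR-335-5p: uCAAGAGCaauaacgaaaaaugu
mmu-miR-504-5p: aGACCCUGgucugcacucuauc
mmu-miR-505-3p: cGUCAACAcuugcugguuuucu
mmu-miR-668-3p: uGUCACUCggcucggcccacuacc
The 4 seeds differ from each other. None of the 5 passed without swim array 46. The small nucleolar RNA genes Snora73a and Snora73b, which lie close in sequence and may share probes, fell by 0.85 and 1.01. Snora73b was at 7.61, 7.89 and 7.80 on swim arrays and at 9.15, 8.58, 8.60 and 8.76 on control arrays.

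The swim effect in muscle was set against that in visceral fat (4 swim and 4 control arrays), kidney (4 and 4) and liver (4 swim and 3 control arrays) of the same series. Each test was the difference of the 2 effects in 1 limma fit, with 1 variance per gene over both tissues. The labels do not say which arrays of different tissues came from the same animal, so all arrays were taken as independent. The effect differed from visceral fat for 1463 of 10172 genes (14.4%), from kidney for 1819 of 9860 (18.4%) and from liver for 893 of 9765 (9.14%). With values as deposited these counts were 199, 56 and 94, and without swim array 46 they were 854, 1321 and 533. Lcn2 differed from all 3 tissues. It rose by 2.41 in muscle, against log2 fold changes of -0.15 in visceral fat, -1.22 in kidney and -2.20 in liver. The value in visceral fat did not pass by itself (SE 0.53, limma adjusted p = 0.855). The differences of 2.56, 3.62 and 4.61 had limma adjusted p = 0.0203, 6.97e-06 and 1.77e-05. Swim muscle reached a mean Lcn2 level of 8.59 against 6.18 in control muscle, while swim liver was at 7.41 and control liver at 9.61, so the change ran the opposite way in liver. Orm1 had a log2 fold change of 1.501 in muscle and -0.18 in liver (difference 1.68, limma adjusted p = 0.00377), at a far higher level in liver, with 12.96 in swim liver and 13.14 in control liver.

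The smooth muscle genes Acta2 and Tagln differed from visceral fat. Acta2 had a log2 fold change of 1.14 in muscle and -0.42 in visceral fat (difference 1.56, limma adjusted p = 0.00132), and Tagln 1.17 and -0.60 (difference 1.77, limma adjusted p = 0.00299). Other vessel genes that rose in muscle rose in visceral fat as well, Notch3 by 0.75, Dll4 by 0.94, Esam by 0.56 and Cdh5 by 0.49. So did Notch1, by 0.53, Robo4, by 0.52, and Ptprb, by 0.46. Myh11, Mylk, Pdgfrb and Vwf were at -0.37, -0.16, 0.17 and -0.37 in visceral fat and did not pass there. Against kidney the difference for Acta2 was smaller, at 0.62 (limma adjusted p = 0.0310), and against liver it did not pass (1.13, limma adjusted p = 0.0842). Col3a1 had -0.97 in muscle and 0.10 in liver (difference -1.08, limma adjusted p = 0.00317). Pmp22 had 1.17 in muscle, -0.07 in kidney and -0.16 in liver, and both differences passed. In visceral fat Pmp22 rose as well, by 0.57 (limma adjusted p = 0.0325). Slc16a3 had -1.07 in muscle and 0.04 in visceral fat, where its mean level was 5.90 in swim fat and 5.86 in control fat (difference -1.11, limma adjusted p = 0.000403). Tead4 had -1.36 in muscle and 0.02 in kidney (difference -1.38, limma adjusted p = 0.000132). In visceral fat Tead4 fell as well, with a log2 fold change of -0.61 (limma adjusted p = 0.00573). Elovl6 had 2.38 in muscle and -0.38 in kidney (difference 2.76, limma adjusted p = 0.00943), and its difference from visceral fat, 0.97, did not pass.

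Arntl, Per3, Tef and Usp2 had the same sign in all 4 tissues. Tef had log2 fold changes of 0.34 in muscle, 1.27 in visceral fat, 0.48 in kidney and 1.16 in liver, with muscle smaller than visceral fat (difference -0.93, limma adjusted p = 0.000415) and than liver (difference -0.82, limma adjusted p = 0.0259). Usp2 had 0.47 in muscle and 2.71 in liver (difference -2.25, limma adjusted p = 0.00483). Per3 had 1.39 in muscle and 2.09 in visceral fat (difference -0.71, limma adjusted p = 0.0186), and Arntl -1.64 and -2.28 (difference 0.64, limma adjusted p = 0.0304). Against liver, the differences for Arntl (0.73) and Per3 (-0.64) did not pass (limma adjusted p = 0.0557 and 0.196). Against kidney, the differences for Arntl, Per3, Tef and Usp2 lay between -0.27 and 0.27 and did not pass.

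**Figure D5:**
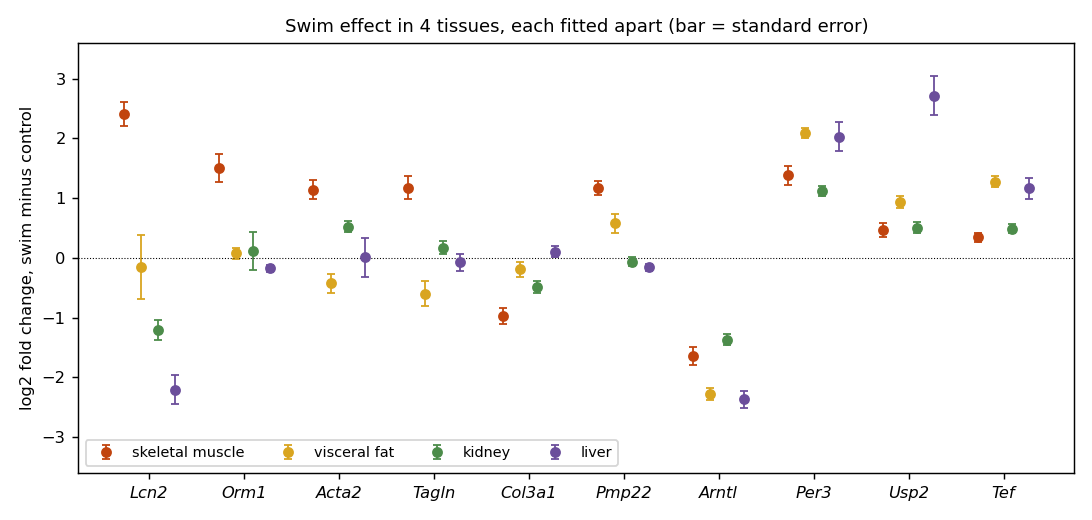
Log2 fold changes, swim minus control (y axis), of 10 genes in skeletal muscle, visceral fat, kidney and liver (colours), each tissue fitted apart, with bars for the standard error. Lcn2 lies at 2.41 in muscle, below 0 in kidney and liver, and within its standard error of 0 in visceral fat. Orm1 and Tagln are highest in muscle, and Arntl, Per3, Usp2 and Tef keep their sign in all 4 tissues.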

How the data were processed

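The 7 skeletal muscle arrays (Affymetrix Mouse Gene 1.1 ST, total RNA by Trizol, biotin label) were grouped by their labels. The authors deposited intensity values on a linear scale for 25917 probe sets. PLIER and limma were used upstream per the submitters' processing notes, with versions, settings and annotation build not given in the sources used here. Medians of the deposited intensity values differed between arrays.

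Deposited values were converted to log2(signal + 16) and quantile normalized within the 7 arrays. Quantile normalization removes differences in overall level and can move small changes. Of the probe sets, 21086 carried 1 gene symbol and were used, 1867 carried several and 2964 none. After removal of the lowest 40% by mean, a gene with several probe sets was read from its brightest one. Linear models of swim minus control used limma 3.58.1 under R 4.3.3 (two-sided moderated test, Benjamini-Hochberg over all genes tested, threshold 0.05). For differences between tissues, each tissue was normalized apart and 4 group means were fitted. Robust fits used statmod 1.5.0 and figures matplotlib 3.10.9 (Python 3.11.15). The fit was tested on simulated data. The 49 gene lists held 1126 names, of which 1026 matched the array, and lists were described by counts and medians without a set test.

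The members and lists were chosen with earlier results of these data known. Named genes were the 15 largest rises and 15 largest falls among called genes whose groups did not overlap, up to 6 members of smallest p in each list, the measured members of the slow fibre, fast fibre, PGC-1, pyruvate dehydrogenase, clock, secreted factor, atrophy and adipocyte lists, and, for every test between tissues, its 10 genes of smallest p. Other named genes were chosen after their values were seen. Alternatives were other scalings, pseudocounts, filters, variance models, array weights, covariates for fat and slow fibre content, 1 fit of all 54 arrays and leaving out each array. Leaving out swim array 45 and control array 42 together was chosen after seeing the data.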

Additional observations from a re-analysis of the deposited data

Results flagged for a closer look

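In 8 of the genes checked 1 control array lay far from the other 3, by a gap rule that chance meets in about 1 in 20 groups. Changes of 190 genes are given in this text, so as many such gaps can come by chance alone. The 8 were the log2 levels of Icam1 (6.01) and Loxl1 (7.96) on control array 41, of Esrra (8.08), A530016L24Rik (5.36), Adipoq (6.27) and Tpm3 (6.59) on control array 42, of Sat2 (6.94) on control array 43 and of Psmd12 (10.44) on control array 44. Myh3 and Mymk, for which control array 42 stood apart as described above, are not counted in the 8.

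The swim effect of the following genes differed between muscle and another tissue by a test of the difference itself (limma), given as the muscle log2 fold change minus the other. Against visceral fat the differences were 2.56 for Lcn2, 1.87 for Tst, 1.77 for Tagln, 1.56 for Acta2, 0.92 for Bcat2, 0.82 for 0610010K14Rik and 0.64 for Arntl. They were -1.43 for Mir505, -1.33 for Rbm38, -1.15 for Ttc14, -1.14 for Gpr52, -1.11 for Slc16a3, -1.08 for Eml5, -1.06 for Mir15a, -1.05 for Wsb1, -0.93 for Tef and -0.71 for Per3. Against kidney they were 3.62 for Lcn2, 2.76 for Elovl6, 1.30 for Dad1, 1.06 for Trmt112, 0.99 for Dpagt1, 0.88 for Psmb2, 0.78 for Ethe1 and 0.74 for Rnf167, and -2.13 for Snora73b, -1.93 for Snora73a, -1.38 for Tead4 and -0.87 for Slc25a36. Against liver they were 4.61 for Lcn2, 1.68 for Orm1, 1.33 for Pmp22, 1.24 for Tagln, 1.23 for Atxn1, 0.87 for Stxbp6, 0.81 for Elovl1 and 0.72 for Tln2, and -4.46 for Hamp2, -2.25 for Usp2, -1.08 for Col3a1, -1.04 for Pptc7, -0.86 for Sirt3, -0.82 for Tef and -0.62 for Ubac1. Hamp2, the second hepcidin gene of mice, was at a mean level of 6.12 in swim muscle and 6.21 in control muscle, and its difference came with a log2 fold change of 4.37 in liver.

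Probe sets outside the gene tests also passed in muscle. Of 1075 tested probe sets with more than 1 gene symbol, 45 passed (4.19%), 29 higher and 16 lower in swim muscle, and of 1392 with no gene symbol 9 passed (0.647%).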

How the results depend on the processing

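No paired analysis was possible because the title numbers of swim and control arrays are not shared between the groups. The 1320 calls in muscle became 376 with values as deposited, 599 with no filter, 2753 with array weights, 2022 with the slow fibre mean as a covariate and 610 in 1 fit of all 54 arrays, and 68 to 1206 when 1 array was left out, lowest without swim array 46. Under the other scaling, pseudocount, filter, probe set and variance settings and with the white adipocyte covariate it was between 885 and 1535. The 1463 calls against visceral fat became 199 as deposited and 854 to 1236 without 1 muscle array, the 1819 against kidney 56 as deposited, 1016 with arrays centred on their medians and 1321 to 1784 without 1 array, and the 893 against liver 94, 225 and 533 to 826 under the same settings. With values as deposited the sign turned for Mlxipl (-0.0004), Dbt (-0.0215), Ppargc1a (-0.0114), Sgca (-0.13), Cacna1s (-0.0097), Map1lc3b (-0.0191), Rpl10 (-0.0384) and Rpl29 (-0.0551), and with arrays centred on their medians for Sgca (-0.0145). Of the 182 called genes in the text, 175 kept their sign in all settings run and 126 passed without swim array 45 and control array 42. The cause of these shifts was not tested, and some of the fits also differed in the number of arrays or of genes tested. With 3 and 4 arrays, genes near background and small changes are poorly resolved.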
